A study of Rattus norvegicus with 6 samples.

Results

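The genes described here are 10 of the molecular clock and its direct output: Dbp, Wee1, Per1, Per2, Nr1d1, Nr1d2, Bhlhe41, Bhlhe40, Tef and Clock. They were read in pancreas tissue from 6 animals, with 1 array for each: 3 rats had been fed a control diet and 3 an ethanol diet. The study asked how long-term ethanol feeding affects the rat pancreas. Strain, age, sex, ethanol dose, length of feeding and the hour at which the tissue was taken are not stated in the sources used here, so whether both groups were sampled at 1 point of the day is not known. The 10 genes were chosen by their measured values in this same comparison, together with their place in the clock. Their differences between the diets are therefore given as a description, with no test. They are 10 of 10411 genes with a probe set annotated to that gene alone, and they hold 14 of the probe sets on the array: 3 for Nr1d2, 3 for Clock and 1 for each of the others. A probe set is a group of short probes that reads 1 stretch of a transcript. All 10 gene IDs were found in RefSeq's gene table for GRCr8, a rat assembly, under the same symbols.

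The circadian clock is a transcription feedback loop that runs in nearly every cell, the exocrine pancreas included. The proteins Clock and Bmal1 pair up and bind E-box letters near their targets, among them the Per, Cry, Nr1d, Bhlhe and Dbp genes. Per and Cry proteins return to the nucleus and repress that pair, Bhlhe40 and Bhlhe41 compete for the same E-boxes, and the nuclear receptors Nr1d1 and Nr1d2 repress Bmal1. Dbp and Tef carry the rhythm outward by binding D-box letters in output genes, and Wee1, a kinase that holds back entry into mitosis, is a known E-box target. In tissues outside the brain the timing follows meals and glucocorticoids as well as light, and single clock transcripts can swing widely over a day, each with its own peak.

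RefSeq held promoter sequence on GRCr8 for 9 of the 10 genes, in 11 entries that each run from 250 bases before a gene's start to 50 bases after it. The entries were searched on both strands for CACGTG (the E-box), CACGTT (a variant E-box), TTATGTAA or TTACGTAA (D-boxes), AGGTCA (the half-site bound by nuclear receptors such as Nr1d1) and TGACGTCA (a cAMP response element). These letters do not overlap each other in the entries of the 10 genes. A match is a description of the letters and not a site shown to be bound. An E-box or variant E-box lay in 6 of the 11 entries, from 5 genes. Over all 33469 RefSeq promoter entries of this length, 6.42% held CACGTG, 4.83% CACGTT, 1.01% a D-box, 16.2% AGGTCA and 1.83% TGACGTCA. The entries below are shown because they hold these letters and belong to genes that differed in opposite directions or hardly at all between the diets. Sequences run 5′ to 3′ on the gene's strand, and capitals mark the matches.
Per2, chr9:99496944-99497243, - strand: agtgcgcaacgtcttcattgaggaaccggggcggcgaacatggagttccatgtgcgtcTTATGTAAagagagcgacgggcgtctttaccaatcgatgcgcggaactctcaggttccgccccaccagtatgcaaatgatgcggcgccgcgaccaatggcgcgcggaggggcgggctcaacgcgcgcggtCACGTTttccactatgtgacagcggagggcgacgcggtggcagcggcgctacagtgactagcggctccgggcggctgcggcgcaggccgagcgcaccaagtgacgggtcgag
Bhlhe41, chr4:180569306-180569605, - strand: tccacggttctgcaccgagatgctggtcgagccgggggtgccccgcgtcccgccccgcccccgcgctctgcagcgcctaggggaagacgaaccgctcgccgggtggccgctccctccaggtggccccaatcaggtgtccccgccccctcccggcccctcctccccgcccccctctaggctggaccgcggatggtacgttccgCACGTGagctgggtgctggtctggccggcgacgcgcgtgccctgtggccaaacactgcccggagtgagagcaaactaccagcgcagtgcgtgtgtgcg
Nr1d1, chr10:84229405-84229704, - strand: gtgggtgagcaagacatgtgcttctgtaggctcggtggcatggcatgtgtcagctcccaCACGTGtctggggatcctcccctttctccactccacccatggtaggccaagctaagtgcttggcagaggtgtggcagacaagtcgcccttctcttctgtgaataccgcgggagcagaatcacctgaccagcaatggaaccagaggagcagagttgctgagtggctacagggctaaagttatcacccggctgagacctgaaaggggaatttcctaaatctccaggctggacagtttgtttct
Bhlhe40, chr4:143174200-143174499, + strand: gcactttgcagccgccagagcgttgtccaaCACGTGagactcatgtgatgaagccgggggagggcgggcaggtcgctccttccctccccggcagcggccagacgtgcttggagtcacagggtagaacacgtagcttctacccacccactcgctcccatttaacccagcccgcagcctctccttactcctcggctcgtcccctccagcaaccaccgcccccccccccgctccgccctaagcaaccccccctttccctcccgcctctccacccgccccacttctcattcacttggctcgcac
Tef, chr7:115206577-115206876, + strand: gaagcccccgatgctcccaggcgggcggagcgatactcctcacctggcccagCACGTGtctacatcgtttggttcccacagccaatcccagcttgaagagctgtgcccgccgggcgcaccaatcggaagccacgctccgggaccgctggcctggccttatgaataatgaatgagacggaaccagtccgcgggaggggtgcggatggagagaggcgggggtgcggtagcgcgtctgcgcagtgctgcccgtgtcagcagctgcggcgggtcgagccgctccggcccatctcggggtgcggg
In Per2 the D-box begins 192 bases and the variant E-box 62 bases before the gene's start. The E-box begins 48 bases before the start in Bhlhe41, 191 in this entry of Nr1d1, 220 in Bhlhe40 and 198 in Tef. The other entry of Nr1d1 (chr10:84231763-84232062, - strand) has the variant E-box read on the opposite strand. Nr1d2 has the half-site AGGTCA, 187 bases before its start, and 3 genes, Dbp, Per1 and Clock, have none of these letters inside the 300 bases of any entry. Genes with an E-box in the window included 1 that was lower on the ethanol diet (Bhlhe41), 1 that was higher on average (Nr1d1) and 2 that were about level (Bhlhe40 and Tef).

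The values are intensities as deposited, some of them below 0, with nearly the same median on every array. Array medians were 543 or 544, so a difference in total RNA between the diets would not show. A value below 0 was set to 0, 50 was added and the log2 taken, and log2 changes are ethanol minus control with a standard error (SE) from limma. Of 15866 probe sets, the 9520 at or above the 40th percentile of mean log2 value were tested. Correlations of log2 values over these probe sets, which are not independent replicates, ran from 0.952 to 0.963 between control rats, from 0.927 to 0.949 between ethanol rats and from 0.907 to 0.935 across diets. Ethanol rat 1 correlated less with ethanol rats 2 and 3 (0.927 and 0.93) than these did with each other (0.949). The ratio of 3′ to 5′ signal, a sign of RNA integrity, was 1.80 ± 0.313 in control and 1.67 ± 0.122 in ethanol rats for beta-actin and 1.81 ± 0.262 and 1.67 ± 0.175 for GAPDH (SD, n = 3). The exact permutation test, two-sided, gave p = 0.6 for each ratio, also after adjustment over the 2 ratios; the smallest p that 3 against 3 allows is 0.1. Acinar transcripts, the mark of exocrine pancreas, were abundant: all 14 acinar markers with a probe set were above the intensity filter, Cpa1, Cel and Pnlip among the brightest.

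Summed signal of red blood cell and fat markers did not overlap between the diets on the same arrays, although limma called none of the genes tested on either list. The erythroid markers, 5 of them with a probe set, summed to intensities of 15625 to 23125 in control rats and 25817 to 33618 in ethanol rats. Of these, 3 of 4 tested (Hbb, Hba-a3 and Alas2) were higher at an unadjusted limma p under 0.05. Hbb gave most of the sum, and the diets overlapped on the remaining tested gene, Slc4a1 (0.18, SE 0.26). The other Slc4a1 probe set, below the filter, was higher in every ethanol rat (1.39, SE 0.49, from the fit without a filter). The adipocyte markers, likewise 5, summed to 4602 to 7038 and 8211 to 9335, with 2 of 3 tested (Cfd and Lpl) higher at an unadjusted limma p under 0.05. Lpl was the largest part of that sum and itself overlapped, at 4353 in control rat 3 and 4116 in ethanol rat 1. The remaining tested fat marker, Fabp4, had a change of -0.13 (SE 0.24), and Plin1, below the filter, one of -0.04 (SE 0.44). No gene on either list had all its arrays below 50. None of the tested genes of islet, duct, stellate, endothelial or leukocyte lists reached that level, while 1 of 14 acinar and 1 of 4 nerve and glia markers did, both higher. What part these cells had in the values of the clock genes was not tested.

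Of the 14 probe sets of the 10 genes, 11 were bright enough to be tested, at least 1 for each gene, and 3 dim ones (2 of Clock, 1 of Nr1d2) were not. On 4 of the 11 (Dbp, Wee1, Bhlhe41 and 1 of Nr1d2) every ethanol rat read below every control rat, an arrangement found on 14.3% of all tested probe sets. On 1 of the 11 (Per1) every ethanol rat read above every control rat, as on 11.1% of all tested probe sets. On the other 6 the diets overlapped. Limma called Dbp and Wee1, both lower, at an adjusted p under 0.05, a call made for 0.410% of tested probe sets. Since the genes were chosen on this comparison, nothing is read from these counts or calls. The calls of Dbp and Wee1 rested on the settings: with 20 in place of 50 as the constant, with no filter, with any 1 control rat left out and with ethanol rat 2 or 3 left out, limma called neither. The 11 changes ran from -1.90 to 1.57 with a median of -0.04, where the median over all tested probe sets was 0.0002. The plot of each gene by array shows that the 10 genes did not move one way: Dbp, Wee1 and Bhlhe41 were lower, Per1 higher, Tef and Bhlhe40 level, and Per2 and Nr1d1 split within the ethanol group.

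**Figure D1:**
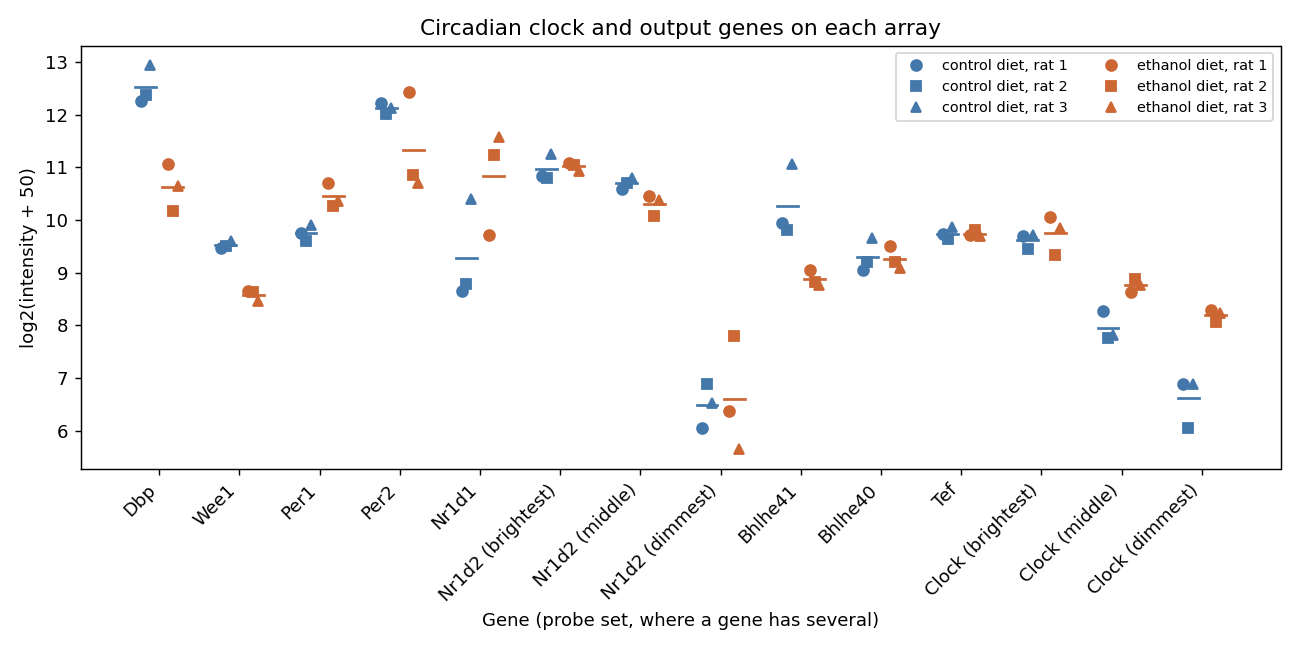
Each of the 14 probe sets on each array, as log2(intensity + 50); blue is the control diet, orange the ethanol diet, the marker shape is the rat and short lines are means of 3 rats. Probe sets with no overlap between diets include Dbp, Wee1 and Bhlhe41 (lower) and Per1 (higher). For Per2, ethanol rat 1 is above every control (5505 against 4085 to 4726).

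Dbp, the D-box activator that carries clock timing to output genes, was lower in all ethanol rats. It read 4851, 5283 and 7825 in control rats 1, 2 and 3 and 2106, 1099 and 1562 in ethanol rats 1, 2 and 3. The lowest control was above the highest ethanol rat. Means were 5986 ± 1607 and 1589 ± 504 (SD, n = 3), a ratio of 3.77 and a log2 change of -1.90 (SE 0.27). Leaving out any 1 rat moved the change between -2.12 and -1.66. In whole tissue such as this, fewer cells that hold a transcript and less transcript per cell cannot be told apart.

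Tef, the related D-box activator, was level. Its intensity was 801, 745 and 879 in control rats and 789, 852 and 778 in ethanol rats. All 3 ethanol values lay inside the control range. The log2 change was -0.0015, with a 95% interval of -0.32 to 0.31. Among the related factors outside the 10 genes, Hlf, the remaining member of the family, read 671, 202 and 204 against 163, 203 and 233, and overlapped on its brighter probe set. Nfil3, which represses through the same D-box letters, read 238, 408 and 352 against 149, 362 and 549. Both lay below the intensity filter. In the fit without a filter their changes were -0.53 (SE 0.46, limma adjusted p = 0.646) and -0.04 (SE 0.45, limma adjusted p = 0.991).

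The Period genes, the repressor arm of the loop, went apart. Per1, which responds quickly to glucocorticoid and cAMP signals as well as to the clock, read 814, 731 and 915 in control rats and 1624, 1184 and 1271 in ethanol rats. Every ethanol rat was above every control rat. Means were 820 ± 92.1 and 1360 ± 233 (SD, n = 3), a ratio of 1.66 and a log2 change of 0.69 (SE 0.17). Left-out rats moved that change between 0.56 and 0.78.

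Per2 read 4726, 4085 and 4442 in control rats and 5505, 1795 and 1612 in ethanol rats. Ethanol rat 1 was the highest of all 6, while ethanol rats 2 and 3 were below every control. The mean went from 4418 ± 321 to 2971 ± 2197 (SD, n = 3) and the log2 change was -0.79 (SE 0.41), with a 95% interval of -1.73 to 0.14. The change was -1.35 without ethanol rat 1, -0.55 without ethanol rat 2 and -0.48 without ethanol rat 3. Within the ethanol group the values spanned 3.34-fold, against 1.16-fold within the controls, as ratios of intensity + 50.

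The remaining Period and Cryptochrome genes with a probe set lay below the intensity filter. Per3 read near or below 0 on all arrays, from -111 to 72. Cry2, the partner of the Period proteins in repression, has 2 probe sets. One read 887, 885 and 1470 in control rats and 472, 2 and 33 in ethanol rats. Every ethanol rat was lower, with ethanol rat 1 nearest to the controls. Its change on the log2(value + 50) scale was -3.07 (SE 0.91, limma adjusted p = 0.265 without the filter), a size that depends on the constant because 2 arrays are near 0. The other probe set read 588, 449 and 301 against 520, 188 and 205, a change of -0.56 (SE 0.42, limma adjusted p = 0.594 without the filter). On both Cry2 probe sets ethanol rat 1 read above ethanol rats 2 and 3. The same held on 9 of the 11 tested probe sets of the 10 genes, Per2 among them.

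Nr1d1, the haem-binding receptor that represses Bmal1, varied more from rat to rat than any other of the 11 tested probe sets. It read 355, 389 and 1296 in control rats and 789, 2367 and 3011 in ethanol rats. Control rat 3 was above ethanol rat 1, so the diets overlapped. Means were 680 ± 534 and 2056 ± 1143 (SD, n = 3), a ratio of 3.02 and a log2 change of 1.57 (SE 0.57). The change was 2.12 without control rat 3, 2.13 without ethanol rat 1 and 1.20 without ethanol rat 3. Its residual SD within diets was 0.98 on the log2 scale, at percentile 99.8 of tested probe sets, whose median was 0.22.

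Nr1d2, the sister receptor, did not share that pattern. Its brightest probe set read 1779, 1732 and 2392 in control rats and 2113, 2053 and 1913 in ethanol rats, with overlap and a change of 0.06 (SE 0.17, 95% interval -0.32 to 0.43). The middle probe set read 1488, 1629 and 1743 against 1360, 1025 and 1289. Here every ethanol rat was lower, by 0.40 on the log2 scale (change -0.40, SE 0.16). The dimmest read from -37 to 173 and gave 0.12 (SE 0.59). The probe sets of Nr1d2 thus disagree on whether the diets differed. Bmal1, the target of both receptors, was below the filter, at 80, 175 and 281 in control rats and 260, 431 and 289 in ethanol rats (0.79, SE 0.39, limma adjusted p = 0.435 without the filter). Its control and ethanol values overlapped.

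Clock, the partner of Bmal1, was read by 3 probe sets that differ in size of change. The brightest gave 776, 650 and 787 in control rats and 1013, 600 and 874 in ethanol rats, with the lowest of the 6 in ethanol rat 2, and a change of 0.13 (SE 0.20, 95% interval -0.33 to 0.60). On the middle probe set the values were 259, 166 and 175 against 347, 420 and 386. The dimmest read 69, 16 and 69 against 264, 218 and 251. On both dim probe sets every ethanol rat was above every control rat, with changes of 0.81 (SE 0.17) and 1.59 (SE 0.27) from the fit without a filter. The last depends on the constant, being 2.00 with 20 and 1.21 with 100 in place of 50. Both lay below the filter, and whether they read the same transcripts as the brightest is not known from the sources used here.

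Bhlhe41 and Bhlhe40, E-box repressors of 1 family, also differed. Bhlhe41 read 931, 854 and 2100 in control rats and 483, 404 and 383 in ethanol rats. The highest ethanol rat was below the lowest control, and control rat 3 stood 2.38-fold above the lowest control, as a ratio of intensity + 50. Means were 1295 ± 698 and 423 ± 52.7 (SD, n = 3), a ratio of 3.06 and a log2 change of -1.40 (SE 0.31), or -1.0 without control rat 3. Bhlhe40 read 479, 540 and 760 against 677, 543 and 493. It overlapped fully, with a change of -0.04 and a 95% interval of -0.50 to 0.42.

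Wee1, the kinase that restrains Cdk1 until a cell is ready to divide, was the most even of the lower genes. It read 660, 678 and 730 in control rats and 353, 346 and 302 in ethanol rats. The groups stood well apart, with means of 689 ± 36.4 and 334 ± 27.6 (SD, n = 3), a ratio of 2.07 and a log2 change of -0.95 (SE 0.14). Its mean log2 value was at percentile 46.5, not far above the filter. All 3 ethanol values lay under the filter's intensity level, so Wee1 was tested only through its control values. Its within-diet SD was 0.09, at percentile 6.25 of tested probe sets, and the change stayed between -0.98 and -0.89 with any 1 rat left out. Of a list of 26 partners of Wee1 around the entry into mitosis, 21 had a probe set and 12 were tested. Limma called 0 of the 12, and the median change was -0.0060. At an unadjusted p under 0.05 there was 1 lower gene and 0 higher, or 8.33% of the 12, against 18.4% of all tested probe sets. The lower gene was Ywhah, a 14-3-3 protein, at 1752, 2407 and 2681 in control rats and 1446, 1704 and 1354 in ethanol rats (-0.57, SE 0.19, limma adjusted p = 0.174). Next by p were the spindle checkpoint kinase Bub1b (0.36, SE 0.18, limma adjusted p = 0.326) and Cdc20 (-0.23, SE 0.13, limma adjusted p = 0.397), whose dimmer probe sets, all below the filter, had the opposite sign. Cdk1 itself was below the filter.

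The order of the rats within a diet recurred across the genes. Control rat 3 was the highest control on 10 of the 11 tested probe sets, Per2 being the exception. Over all tested probe sets it was highest on 35.7%. Ethanol rat 1 was the highest ethanol rat on 9 of the 11, the exceptions being Nr1d1, where it was lowest, and Tef. Over all tested probe sets it was highest on 35.3%. The genes share the same 6 arrays and Nr1d2 enters with 2 probe sets, so these counts describe the rats and are not separate observations. The genes were also chosen with the order of the rats known, so nothing is read from how these counts differ from the shares over all probe sets. Large departures were fewer: control rat 3 lay over 1 on the log2 scale from the mean of the other controls for Nr1d1 (1.68) and Bhlhe41 (1.19), as on 1.18% of tested probe sets. Ethanol rat 1 lay that far from the mean of ethanol rats 2 and 3 for Per2 (1.67) and Nr1d1 (-1.70), as on 2.83%. Ethanol rat 3 did so from the mean of the other ethanol rats for Nr1d1 (1.10), as on 1.66%. The same measure for Dbp was 0.62 in control rat 3 and 0.66 in ethanol rat 1.

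**Figure D2:**
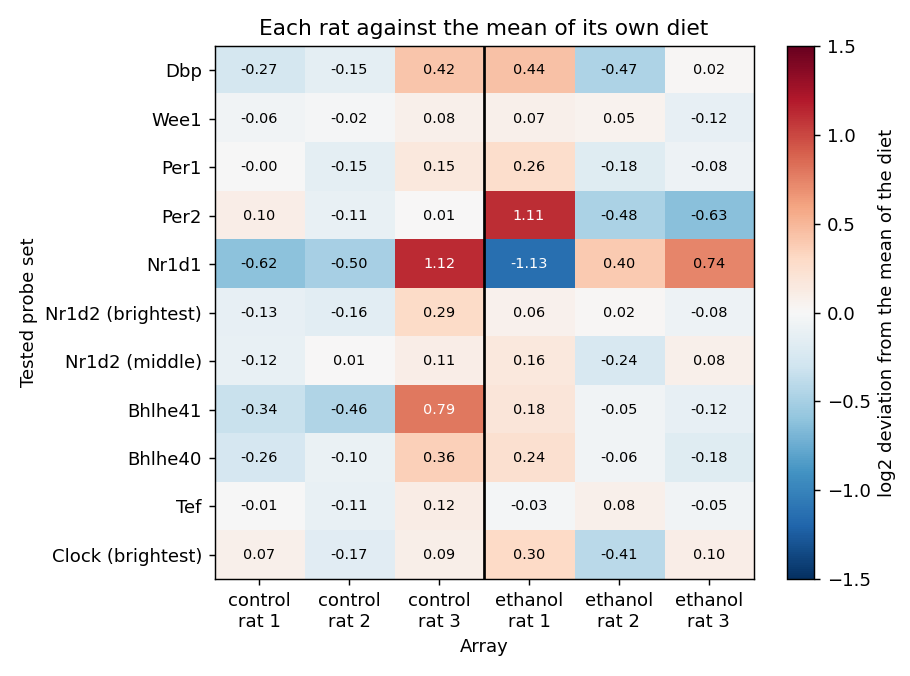
Log2 deviation of each rat (columns) from the mean of its own diet, for the 11 tested probe sets (rows); red is above and blue below that mean. Control rat 3 is above its diet mean on all rows and ethanol rat 1 on all but Nr1d1 (-1.13) and Tef (-0.03), while Per2 in ethanol rat 1 is at 1.11.

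The spread between rats on 1 diet differed widely between these genes. The within-diet SD of log2 value was 0.09 for Wee1 and 0.09 for Tef, 0.20 for Per1, 0.41 for Dbp, 0.50 for Bhlhe41, 0.69 for Per2 and 0.98 for Nr1d1. It was above the median of all tested probe sets (0.22) on 6 of the 11, with a median of 0.27. Per2 stood at percentile 98.7, Bhlhe41 at 94.8 and Dbp at 89.3. For Per2 the spread came from the ethanol rats, and for Bhlhe41 from the controls.

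Beyond the 10 genes, 6 lists of clock genes, fixed by name, held 116 genes, of which 93 had a probe set and 61 were tested. Limma called 0 of the 61 at an adjusted p under 0.05, the smallest adjusted p being 0.106, and 3 (Cdkn1a, Por and Trim28) with a variance trend. At an unadjusted p under 0.05, 4 were higher and 8 lower, or 19.7% of the 61 against 18.4% of all tested probe sets. The diets did not overlap on 7 higher (11.5%) and 8 lower (13.1%), shares near the 11.1% and 14.3% of all tested probe sets. The lists' median change was -0.11. The 10 genes, chosen by their values in this comparison, are not in these lists. The counts thus cover only clock genes that were left after that choice.

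Among partners in the core loop, Id2, an inhibitor of E-box factors with a daily rhythm, was the 1 tested gene. It read 1086, 1494 and 1733 in control rats and 515, 819 and 819 in ethanol rats, with no overlap (-0.96, SE 0.23, limma adjusted p = 0.107), and its dimmer probe set also had all ethanol rats lower. Rorb (0.28, SE 0.22), Timeless (0.30, SE 0.32), Tipin (0.32, SE 0.22) and Prok2 (1.26, SE 0.63) were below the filter and overlapped (limma adjusted p from 0.446 to 0.709 without the filter).

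Of the kinases, phosphatases and ligases that act on clock proteins, 19 were tested, of which 2 were lower and 0 higher at an unadjusted limma p under 0.05. Csnk2a2, a catalytic subunit of casein kinase 2, read 1261, 1397 and 936 against 632, 496 and 902 (-0.80, SE 0.24, limma adjusted p = 0.149). Usp2, a deubiquitinase under clock control, read 3383, 4182 and 2375 in control rats and 3398, 1042 and 1016 in ethanol rats on its brighter probe set (-1.04, SE 0.44, limma adjusted p = 0.253). Ethanol rat 1 lay within the control range and ethanol rats 2 and 3 below it. For Per2 the latter were likewise below every control, a likeness noticed after the values were seen. The other Usp2 probe set was nearly as bright, at a mean log2 value of 11.14 against 11.16. It had the opposite sign (0.30, SE 0.23), reading 3306, 2342 and 1896 in the ethanol rats. With the mean of its probe sets the change of Usp2 was -0.37 (limma adjusted p = 0.568). The deubiquitinase Usp7 was at -0.28 (SE 0.15, limma adjusted p = 0.355).

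Of 14 tested cofactors, 1 was higher and 2 lower at that level. Trim28, a co-repressor, read 4319, 4692 and 4478 against 3192, 2727 and 3134 (-0.57, SE 0.14, limma adjusted p = 0.107). Nono, an RNA- and DNA-binding partner of Per proteins, was at -0.36 (SE 0.14, limma adjusted p = 0.238). Sfpq, which pairs with Nono, was at 1.06 (SE 0.26, limma adjusted p = 0.107) on the brighter of its probe sets, while the other gave 0.09 (SE 0.16).

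Of 12 tested genes of the signals that reach the Per1 promoter, 1 was higher and 0 lower at that level, the kinase Sik1 on its brighter probe set. There it read 1104, 1406 and 1038 against 2551, 1464 and 1577 (0.60, SE 0.23, limma adjusted p = 0.221). The other Sik1 probe set was lower (-0.47, SE 0.18), also at an unadjusted limma p under 0.05. The count thus rests on the probe set that stands for Sik1. With the mean of its probe sets the change was 0.07. Crem, a cAMP-responsive factor (0.27, SE 0.16), and Srf (0.30, SE 0.18) had the next smallest p.

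Of 15 tested output transcripts, 2 were higher and 3 lower at that level. Por, the electron donor of cytochromes P450, read 2023, 3243 and 2033 in control rats and 1235, 1227 and 1424 in ethanol rats (-0.85, SE 0.20, limma adjusted p = 0.106), and its dimmer probe set also had no overlap. The gluconeogenic enzyme Pck1 (0.73, SE 0.18, limma adjusted p = 0.108) and Cdkn1a, a cell cycle inhibitor repressed by Nr1d1 in liver (0.61, SE 0.15, limma adjusted p = 0.108 on its brighter probe set), were higher in every ethanol rat than in any control. The diets overlapped on the dimmer Cdkn1a probe set, below the filter (0.41, SE 0.36).

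**Figure D3:**
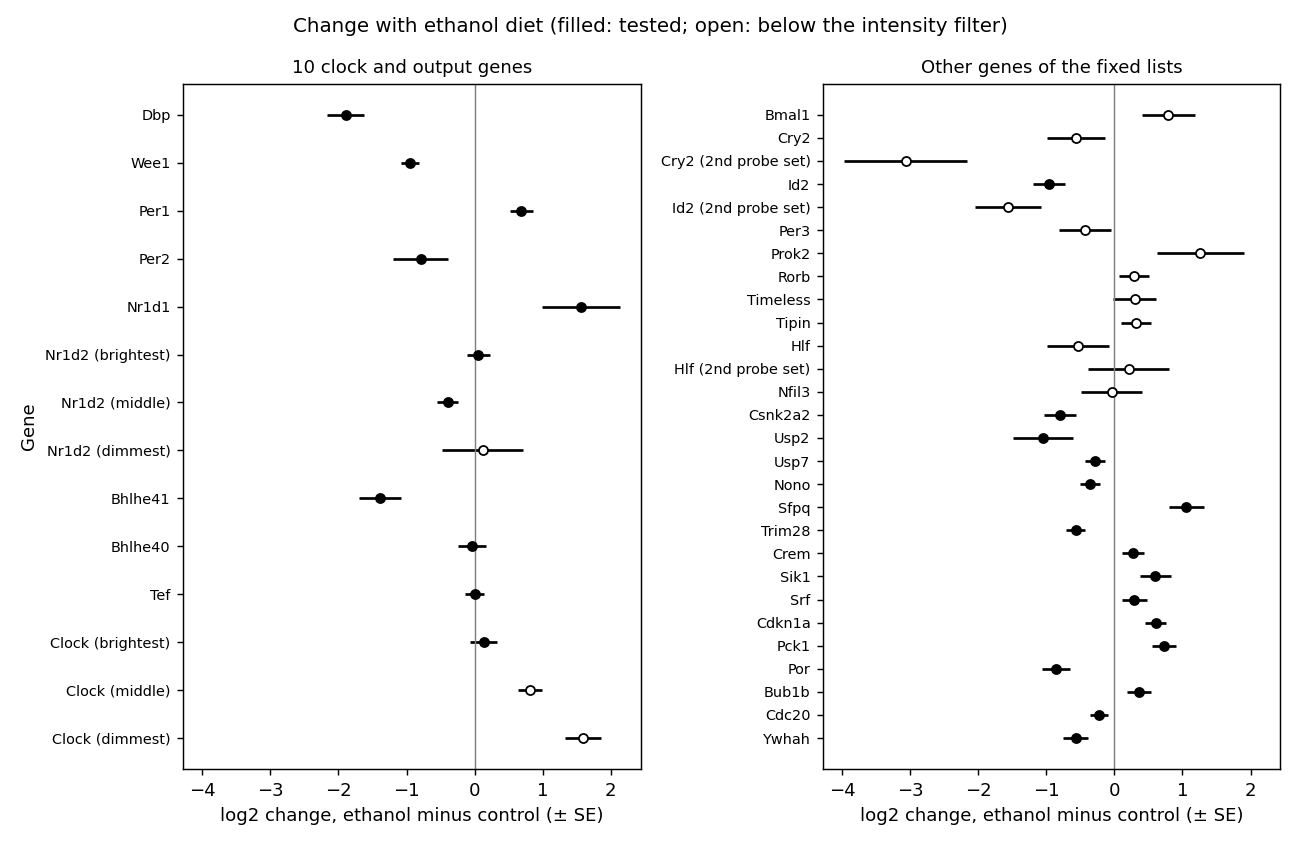
Log2 change, ethanol minus control, with its SE, for the 14 probe sets of the 10 genes (left) and for named genes of the fixed lists (right); filled points were tested and open points lay below the intensity filter. The 10 genes run from -1.90 for Dbp to 1.59 for the dimmest Clock probe set, and the widest error on the right belongs to a Cry2 probe set at -3.07.

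Profiles like those of Dbp and Per1 over the 6 arrays were sought among 7096 other tested genes, by the root mean square difference of log2 values after each profile was centred on its mean. Nearest to Dbp came Mt2A, a metallothionein (difference 0.34), Dtx3l, a ubiquitin ligase (0.39), mrpl9 of the mitochondrial ribosome (0.40), Lbh (0.41) and Cadps, which primes secretory vesicles (0.41). Mt2A read 30367, 24761 and 26814 in control rats and 7176, 5962 and 5805 in ethanol rats. Of the 5, Cadps alone shared with Dbp both its highest rat, control rat 3, and its lowest, ethanol rat 2. Nearest to Per1 were Dcun1d4 (difference 0.07), Rsrp1 (0.08), Cacna1g, a calcium channel (0.09), Cfd, an adipocyte protease of the complement system (0.09), and Tuba4a, a tubulin (0.09). Cfd read 780, 663 and 856 in control rats and 1718, 1069 and 1079 in ethanol rats, the same order of the 6 rats as for Per1. Dcun1d4, Rsrp1 and Cacna1g had that order too, and Tuba4a alone did not. Cfd is also on the adipocyte marker list. None of the 5 nearest to Per1 was called (limma adjusted p from 0.0964 to 0.179). Of the 5 nearest to Dbp, limma called Mt2A, mrpl9, Lbh and Cadps (adjusted p from 0.00271 to 0.0448) but not Dtx3l (0.0726). Over all tested probe sets 0.410% were called. The genes of both searches were picked for likeness to Dbp or Per1 on these same arrays, so nothing is read from their calls. Since the 6 arrays come from 2 diets, the measure includes the difference between them.

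**Figure D4:**
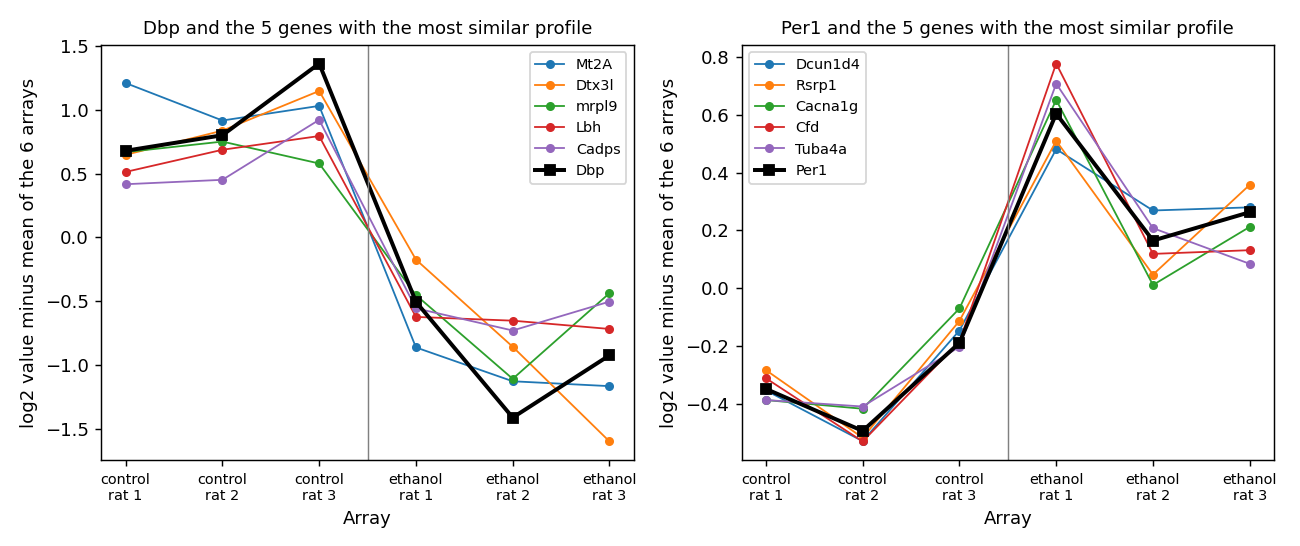
Log2(intensity + 50) minus the mean of the 6 arrays for Dbp (left, black) and Per1 (right, black) with the 5 genes of most similar profile; lines join the arrays of 1 gene and do not stand for time. Dbp has the highest value in control rat 3 (7825) and the lowest in ethanol rat 2 (1099), and Per1 the highest in ethanol rat 1 (1624).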

How the data were processed

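Total RNA of 6 rat pancreases was labelled with biotin and hybridised to 1 array each, per the labels. The deposited values are whole-number intensities on a linear scale. The authors' software, background and normalization methods are not stated in the sources used here; 931 to 949 values per array lay below 0. Of 15923 probe sets, 57 controls were left out. Genes are named only from the 12783 probe sets to which the platform annotation gives 1 symbol; 312 have several and 2771 none.

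The 10 genes, the lists and the tests were chosen with earlier results of these data known. Values were used as log2(max(value, 0) + 50). Those from the 40th percentile of the mean upward entered limma 3.58.1 (R 4.3.3), 2 groups and no block, with Benjamini-Hochberg adjustment over 9520 probe sets. The procedure was tested on simulated data. A gene of a list is read on its tested probe set of highest mean log2 value. Named are all probe sets of the 10 genes, every core loop and D-box partner with a probe set, the 3 genes of smallest p and any called in each other list, and the 5 profiles nearest to Dbp and to Per1. The number of arrays limits the precision; the median SE was 0.178. Alternatives were each rat left out, constants of 20 and 100, quantile normalization, a 60th percentile filter or none, a replicate block, a variance trend and the mean of probe sets.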

Additional observations from a re-analysis of the deposited data

How the results depend on the processing

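Of all 9520 probe sets, 39 were called, but 12 with a constant of 20, 0 without a filter, 134 with a filter at the 60th percentile, 249 with a variance trend and 2 to 38 with 1 rat left out; the cause was not tested. Rats with the same number in the 2 diets did not deviate together (correlations of -0.0295, 0.0259 and -0.138), and a replicate block left 6 calls, none of them of the 10 genes. Among the fixed clock lists the count of 0 became 3 with a variance trend and stayed 0 in the other alternatives; the mitosis list stayed at 0 in all of them. Of the 11 tested probe sets of the 10 genes, 2 were called (Dbp and Wee1). The same 2 were called with a constant of 100 and with quantile normalization. With a variance trend Bhlhe41 joined them, and without ethanol rat 1 the calls were Dbp and Per2. At the 60th percentile Dbp alone was called, and Wee1 lay below that filter. The difference in the GAPDH 3′ to 5′ ratio, -0.134, ran from -0.230 to 0.0169 with 1 rat left out, the last without control rat 3. That of beta-actin, -0.135, ran from -0.315 to -0.0326. Of the 14 probe sets of the 10 genes, the dimmest of Clock alone moved by more than its within-diet SD under another constant (1.59, with 2.00 at 20 and 1.21 at 100).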
